A study of Mus musculus with 6 samples.

Results

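The 10 genes followed through the retina data set were Crx, Nrl, Nr2e3, Otx2, Neurod1, Rorb, Thrb, Rxrg, Mef2d and Samd7. They encode regulators of transcription in rods and cones, the photoreceptor cells of the retina. The genes were listed by name, with earlier results of these data known, and all 10 were present among the 23420 genes of the count table. Retinal RNA was sequenced in 6 libraries, 2 for each of 3 groups. Control retinas came from mice without treatment. Light-exposed retinas came from mice that received light of 10000 lux for 1 h and were analyzed 4 days later. Light-exposed plus minocycline retinas came from mice with the same light exposure and intraperitoneal minocycline, a tetracycline antibiotic, at 45 mg/kg daily for 4 days, and were also analyzed 4 days after light. The labels give the strain as CD1 in every group, whereas the paper's methods describe albino BALB/cJ mice aged 10 to 14 weeks of both sexes, a higher light intensity and injections starting before the exposure. No genotype or transgene distinguishes the groups. Whole retinas were used, so rods, cones, other neurons, glia and adhering tissue entered every library, and whether animals were pooled is not given in the sources used here.

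Photoreceptor identity is laid down in a hierarchy of factors. OTX2 acts early and turns on CRX, a closely related homeobox protein that drives most photoreceptor genes. RORB lies upstream of NRL, the leucine zipper protein that directs precursors to the rod fate, and NRL in turn activates NR2E3, a nuclear receptor that promotes rod genes and represses cone genes. NEUROD1 maintains photoreceptors, MEF2D works together with CRX on photoreceptor enhancers, and SAMD7 is a polycomb-associated repressor of non-rod genes in rods. The thyroid hormone receptor encoded by Thrb and the retinoid X receptor encoded by Rxrg set which opsin a cone expresses.

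Total counts ranged from 15205930 in control 1 to 22856922 in minocycline A. The minocycline libraries are called A and B, because both of their columns have the same replicate number in the header. Levels are in CPM, counts scaled to a common library size with the TMM factor of edgeR. Rods were plainly present: the 20 rod phototransduction genes were detected in every library, with a summed level of 107600 to 132200 CPM in the controls, 58094 to 80535 CPM after light and 112700 to 122170 CPM with minocycline. Control 1 held 77778 counts of Xist and 11 counts of 4 Y-linked genes, and the other libraries 25 to 188 and 6532 to 12858. Light-exposed 2 stood apart from light-exposed 1 in its microglia genes, with a summed level of 1535 CPM against 485 CPM over 12 genes. The 8 corneal epithelium genes summed to 210 and 298 CPM in the minocycline libraries and to 4.78 to 20.3 CPM in the other libraries. All 10 transcription factors had counts in every library, from 59 counts for Rxrg to 68023 for Nrl.

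Compared per kilobase of exon, the controls had a top tier of Crx, Nrl and Nr2e3. Their level was 555 ± 21.8, 552 ± 72.8 and 487 ± 121 CPM per kilobase (SD, n = 2), and their library values overlapped. Neurod1 followed at 212 ± 5.85 and Samd7 at 150 ± 1.37 CPM per kilobase, each apart from its neighbors. Otx2 at 57.7 ± 0.0869 and Mef2d at 54.0 ± 2.14 CPM per kilobase came next, with Otx2 above Mef2d in both controls. Rorb and Thrb overlapped narrowly, at 23.9 ± 5.02 and 17.5 ± 4.14 CPM per kilobase, and Rxrg was the lowest of the 10 at 1.99 ± 0.261 CPM per kilobase. Exon lengths came from the GENCODE annotation, which may differ from the gene models used for counting. In the light-exposed libraries Crx led at 335 ± 60.8 CPM per kilobase, and Nr2e3 at 282 ± 70.9 and Nrl at 282 ± 45.4 were not apart. With minocycline Nrl led at 562 ± 55.2, before Crx at 495 ± 40.4 and Nr2e3 at 410 ± 38.8 CPM per kilobase. The other 7 genes kept the same order of means in every group.

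**Figure D1:**
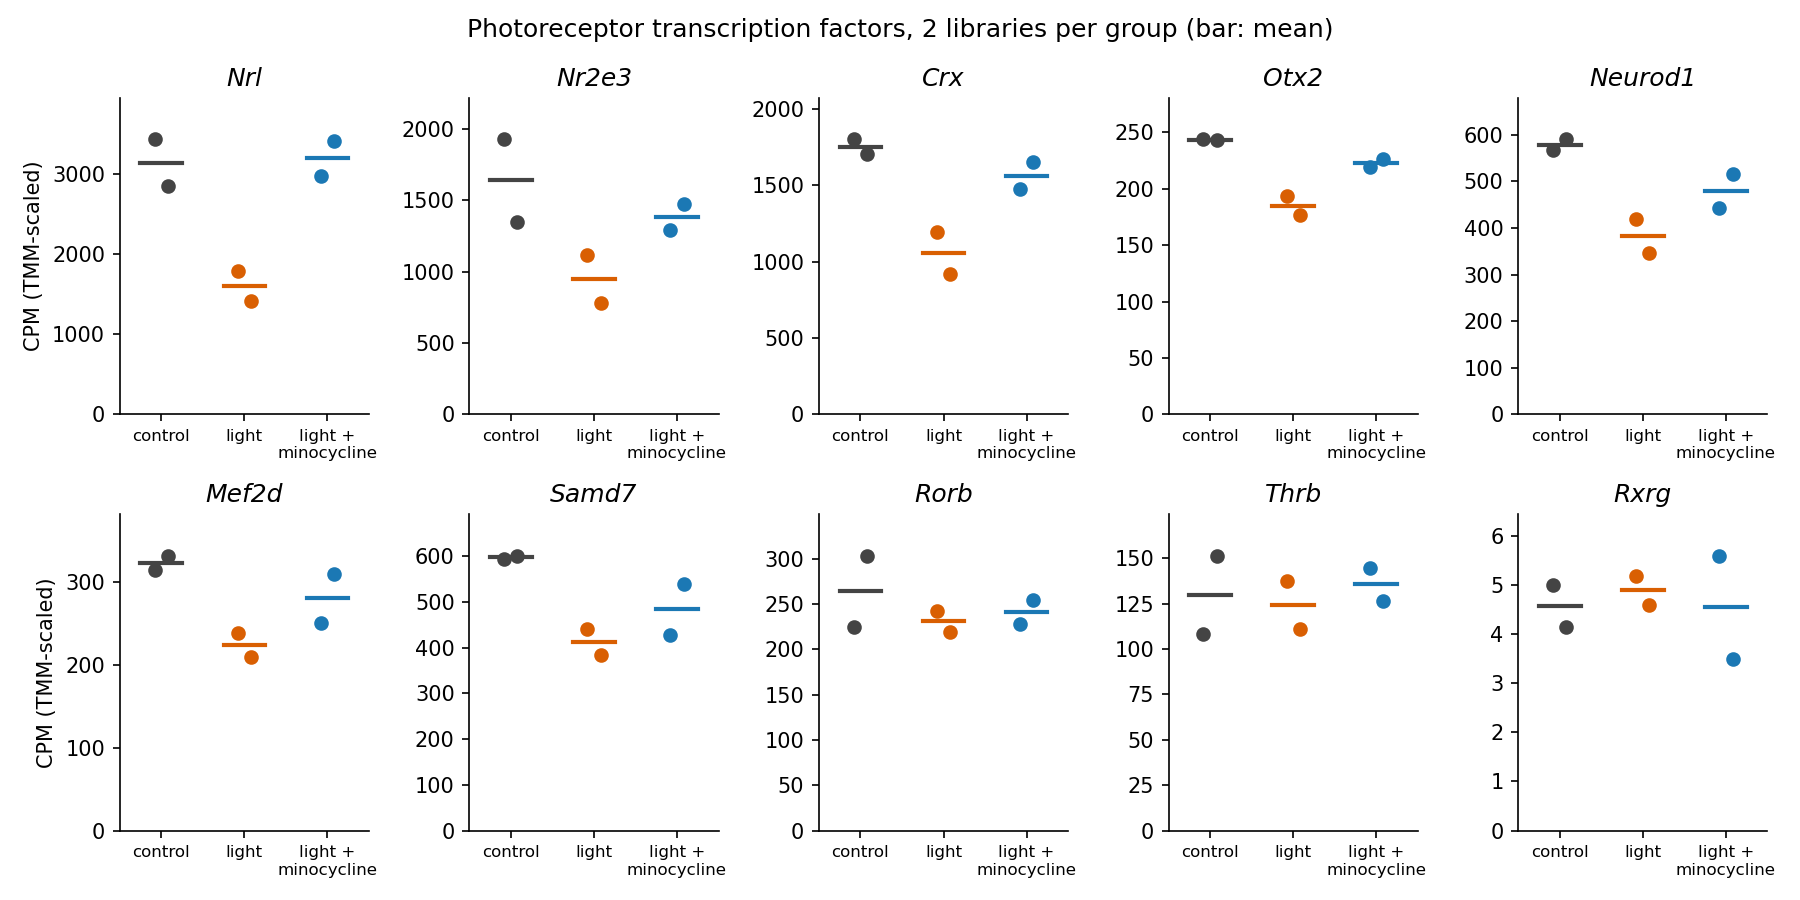
Level in CPM, on the vertical axis, of each of the 10 transcription factors in control, light-exposed and light-exposed plus minocycline retinas. Points are the 2 libraries of a group and bars their mean; for 7 genes, from Nrl to Samd7, both light-exposed points lie under both control points, whereas Rorb, Thrb and Rxrg overlap.

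The comparison of light-exposed with control retinas asked how these factors stood when photoreceptors were degenerating. Nrl fell to about 51% of its control level and was the only member whose change passed the threshold, 0.05 for the adjusted p of edgeR over 14349 genes. In all, 1 of 10 members was called, 0 higher and 1 lower, beside 11.3% of all tested genes called in either direction, 7.52% called higher and 3.8% called lower. The count over all genes varied with the libraries used: 1624 genes were called with all 4 libraries, 4 without control 1, 57 without control 2, 2145 without light-exposed 1 and 497 without light-exposed 2. With the fold cutoff of the study, a log2 fold change of at least 2, 0 members were called, beside 2.92% of all tested genes. Without adjustment, 7 of the 10 members had a p under 0.05 and lower values after light, beside 12.4% of all tested genes, and the same number had light-exposed libraries entirely below the controls, beside 30.8% of all tested genes. The median log2 fold change was -0.52 over the 10 members and 0.00 over all tested genes. In bulk retina, fewer cells of a type and less RNA per cell cannot be told apart.

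Among the rod-determining factors, Nrl (ENSMUSG00000040632.16, chromosome 14, 55518978 to 55524981 in GRCm38) was at 3435 and 2849 CPM in the controls, 1787 and 1421 CPM in light-exposed 1 and 2, and 2974 and 3418 CPM in minocycline A and B. The light-exposed libraries were the lowest of the 6, with no overlap with either other group. The fold of light-exposed over control was 0.514, a log2 fold change of -0.96 (standard error 0.24, 95% interval -1.49 to -0.44), with an edgeR adjusted p of 0.0296. The call was lost when 3 of the 4 libraries were left out in turn: the edgeR adjusted p was 0.127 without control 1, 0.128 without control 2 and 0.199 without light-exposed 2, with log2 fold changes of -0.83, -1.09 and -0.81. It was kept without light-exposed 1, with a log2 fold change of -1.14 and an edgeR adjusted p of 0.013. The call was also lost, at an edgeR adjusted p of 0.054, when libraries were scaled by total counts, under which the median over all genes was 0.24 (log2), and 1930 genes were called higher and 133 lower in place of 1079 and 545. Nr2e3 (ENSMUSG00000032292.8, chromosome 9, 59942771 to 59960659) was at 1929 and 1351 CPM in the controls, 1119 and 781 CPM after light, and 1290 and 1475 CPM with minocycline. Its log2 fold change of -0.78 (standard error 0.25) had an edgeR adjusted p of 0.0707. It was at -0.51 without control 1.

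Crx (ENSMUSG00000041578.15, chromosome 7, 15865947 to 15879968) was at 1803 and 1705 CPM in the controls, 1194 and 923 CPM after light, and 1474 and 1654 CPM with minocycline. Every light-exposed value of Crx was under every other value, and the log2 fold change of -0.72 (standard error 0.22, 95% interval -1.20 to -0.24) had an edgeR adjusted p of 0.0558. Otx2 (ENSMUSG00000021848.16, chromosome 14, 48657677 to 48673819), which is active in photoreceptors, bipolar cells and pigment epithelium alike, was at 244 and 243 CPM in the controls, 193 and 177 CPM after light, and 219 and 227 CPM with minocycline. The 3 groups of Otx2 did not overlap, and the difference of light-exposed from control was -0.39 on the log2 scale (standard error 0.15) with an edgeR adjusted p of 0.112. The 14 genes of pigment epithelium and pigment cells summed to 189 and 465 CPM in the controls, 210 and 287 CPM after light, and 450 and 1584 CPM with minocycline. The higher sums with minocycline came from the pigment genes Dct, at 149.5 and 653 CPM in A and B against 11.1 to 41.3 CPM in the other libraries, Pmel, Tyrp1 and Tyr. Rpe65, the visual cycle isomerase of pigment epithelium, was at 19.6 and 67.9 CPM in the controls, 21.2 and 29.8 CPM after light, and 18.8 and 31.8 CPM with minocycline. Best1 was at 0 in both controls and both minocycline libraries and had 1 count in each light-exposed library. Rpe65, Tyrp1, Tyr and Best1 were named after their values were seen, and the part of these markers in the values of Otx2 was not tested.

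Neurod1 (ENSMUSG00000034701.9, chromosome 2, 79452521 to 79456751) was at 568 and 591 CPM in the controls, 420 and 346 CPM after light, and 444 and 516 CPM with minocycline. Its controls differed little from each other and both light-exposed values were lower, with a log2 fold change of -0.59 (standard error 0.18) and an edgeR adjusted p of 0.0569. Mef2d (ENSMUSG00000001419.17, chromosome 3, 88142372 to 88172086), a MADS-box factor found in many tissues, was at 314 and 333 CPM in the controls, 238 and 209 CPM after light, and 251 and 311 CPM with minocycline. Its log2 fold change of -0.52 (standard error 0.16) had an edgeR adjusted p of 0.055. Samd7 (ENSMUSG00000051860.13, chromosome 3, 30746293 to 30767174) was at 594 and 602 CPM in the controls, 440 and 385 CPM after light, and 428 and 540 CPM with minocycline. The controls of Samd7 were nearly equal, the log2 fold change was -0.53 (standard error 0.17) and the edgeR adjusted p 0.0751. The adjusted p of Crx, Neurod1 and Mef2d lay between 0.055 and 0.0569, close to the threshold. With DESeq2, 6 members were called (Nrl, Crx, Nr2e3, Neurod1, Mef2d and Samd7), beside 13.3% of all tested genes. Without a filter on low counts, edgeR called 5 of them, all but Samd7, beside 12.6% of all tested genes.

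Rorb, Thrb and Rxrg were the members whose light-exposed and control libraries overlapped. Of 14349 tested genes, 4313 lay entirely higher after light and 4425 entirely lower, and the rest overlapped. Rorb (ENSMUSG00000036192.15, chromosome 19, 18930605 to 19111196) was at 225 and 304 CPM in the controls, 242 and 219 CPM after light, and 228 and 255 CPM with minocycline. Its log2 fold change was -0.19 (95% interval -0.58 to 0.20), with an edgeR adjusted p of 0.525. Thrb (ENSMUSG00000021779.17, chromosome 14, 17660261 to 18038090) was at 108 and 151 CPM in the controls, 138 and 111 CPM after light, and 145 and 126 CPM with minocycline. Its log2 fold change was -0.06 (95% interval -0.48 to 0.37), with an edgeR adjusted p of 0.875. For both genes the controls spanned most or all of the range of all 6 libraries, and the sign of the small difference turned when libraries were scaled by total counts, to 0.05 for Rorb and 0.18 for Thrb. Rxrg (ENSMUSG00000015843.10, chromosome 1, 167598384 to 167639623) was rare, at 70 and 59 counts or 4.995 and 4.15 CPM in the controls, 5.18 and 4.597 CPM after light, and 5.60 and 3.49 CPM with minocycline. Its log2 fold change of 0.11 had the widest 95% interval of the 10, -0.59 to 0.80, so differences in either direction within it are compatible with the data. Counts per gene do not separate the isoforms of Thrb, of which a cone-specific form is the best known.

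**Figure D2:**
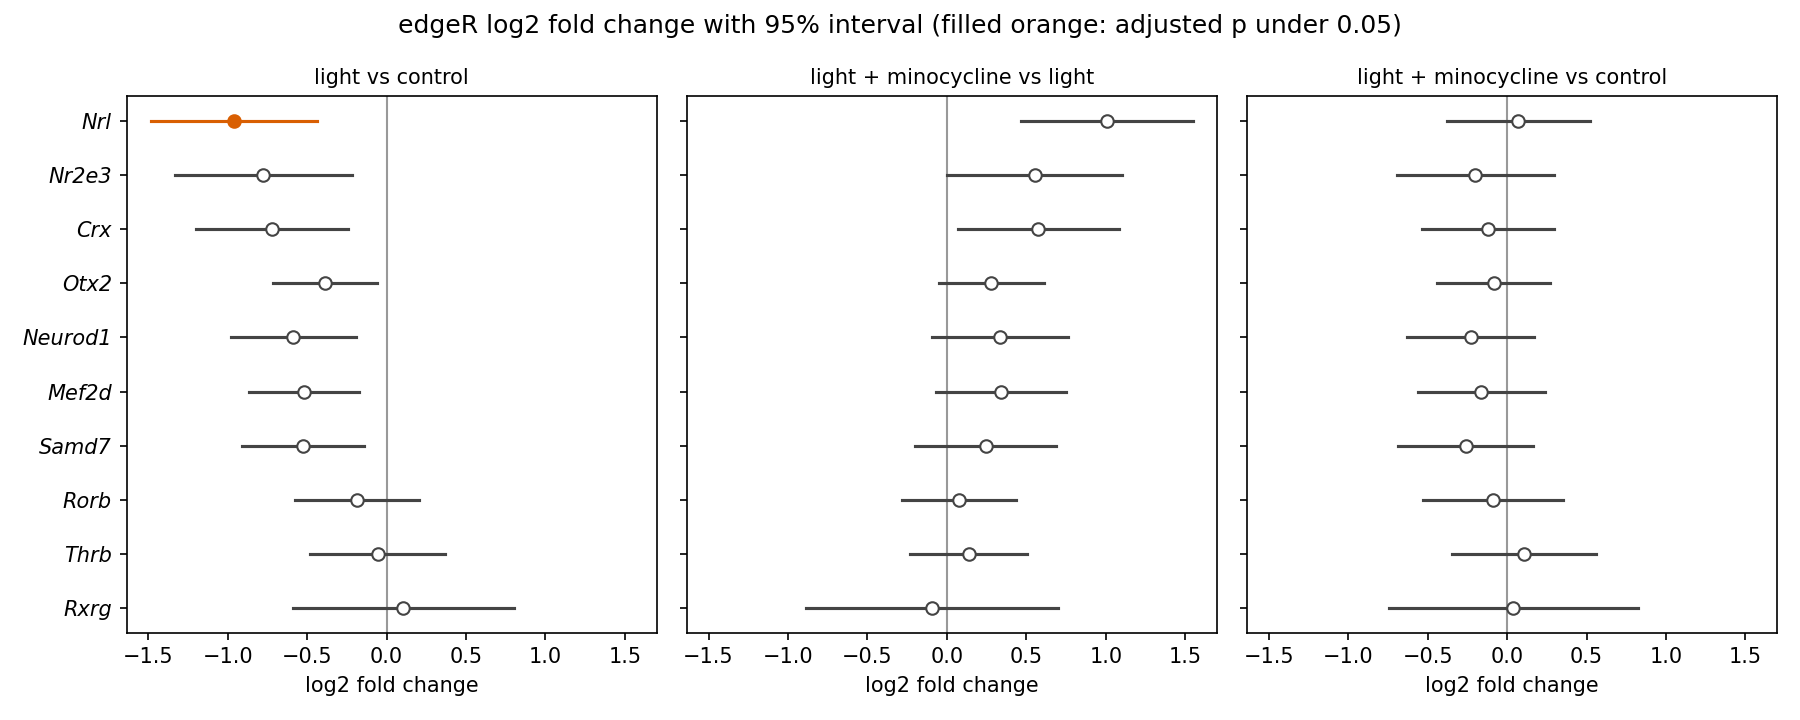
Log2 fold change, on the horizontal axis, of the 10 transcription factors in the 3 comparisons, with the 95% interval from edgeR as a line. Nrl after light, at -0.96, is the only filled point, which marks an adjusted p under 0.05; with minocycline against control all 10 intervals include 0.

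The windows just before the start of these genes are shown because 7 of them had lower values in both light-exposed libraries and because OTX2, CRX, NRL and NEUROD1 bind short known words. Sequences of the 250 bases before each start were taken from RefSeq (GRCm38.p6), with which all 10 genes matched, Otx2, Rorb, Thrb and Rxrg with several starts. Capitals mark the words found, which were searched on both strands. The homeobox proteins CRX and OTX2 bind TAATCC, which reads GGATTA in the window when it lies on the opposite strand. The core of sites of NRL and of its MAF relatives was searched as TGCTGA and its reverse complement. The E-box of NEUROD1 was searched as CAGATG and its reverse complement. The nuclear receptor site was searched as AGGTCA and its reverse complement, and the site of MEF2 factors by its palindromic consensus. The Nrl window (chr14:55524253-55524502, minus strand) is shown for the called gene, those of Crx (chr7:15879956-15880205, minus strand) and Samd7 (chr3:30746043-30746292, plus strand) for the CRX word, and that of Neurod1 (chr2:79456637-79456886, minus strand) for its paired NRL word.
Nrl: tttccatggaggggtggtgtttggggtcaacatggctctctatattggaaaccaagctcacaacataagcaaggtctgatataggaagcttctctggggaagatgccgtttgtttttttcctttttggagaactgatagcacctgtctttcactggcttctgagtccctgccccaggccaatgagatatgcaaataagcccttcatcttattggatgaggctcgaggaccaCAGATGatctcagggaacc
Crx: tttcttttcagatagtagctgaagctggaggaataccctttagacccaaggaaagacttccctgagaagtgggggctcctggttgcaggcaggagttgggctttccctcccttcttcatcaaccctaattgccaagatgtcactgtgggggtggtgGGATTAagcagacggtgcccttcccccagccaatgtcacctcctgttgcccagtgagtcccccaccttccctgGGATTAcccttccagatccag
Samd7: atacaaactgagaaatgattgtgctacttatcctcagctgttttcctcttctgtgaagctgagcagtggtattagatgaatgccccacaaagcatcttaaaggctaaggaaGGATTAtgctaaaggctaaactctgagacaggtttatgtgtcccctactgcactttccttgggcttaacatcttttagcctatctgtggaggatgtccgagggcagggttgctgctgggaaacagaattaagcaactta
Neurod1: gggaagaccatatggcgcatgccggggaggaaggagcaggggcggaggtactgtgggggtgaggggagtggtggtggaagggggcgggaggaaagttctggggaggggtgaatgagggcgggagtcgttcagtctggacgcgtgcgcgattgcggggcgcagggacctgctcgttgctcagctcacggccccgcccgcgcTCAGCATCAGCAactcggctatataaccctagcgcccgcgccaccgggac

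The Crx window held 2 copies of GGATTA, starting 94 and 21 bases before the start, and the Samd7 window held 1, starting 139 bases before it. TAATCC or its reverse was found before 4 of the 10 genes, Crx, Samd7, Thrb and Otx2, and before 7.2% of all 27025 genes with a window, counting a gene if any of its starts held the word. Of the rod phototransduction genes, 13 of 20 matched a window and 7 of these held it, as did 5 of 15 matched outer segment genes and 1 of 7 matched cone phototransduction genes. Nrl had 1 CAGATG, 19 bases before its start, and no CRX word in this window. The NRL word TGCTGA preceded 4 of the 10 genes, Neurod1, Mef2d, Otx2 and Rorb, and 18.0% of all genes, with 2 adjacent copies before Neurod1. CAGATG was present before 2 of the 10 and 16.3% of all genes, AGGTCA before 2 of the 10 and 15.8%, and the MEF2 site before 0 of the 10 and 3.7%. A match is a description of letters, and these data hold no measure of binding.

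How far each factor followed the rod genes was measured within each library, as the log2 CPM of the factor minus the mean log2 CPM of the 20 rod phototransduction genes, a quantity that no scaling of the library alters apart from the prior count. These ratios are given as a description and were not tested. Nrl was lower relative to the rod genes in both light-exposed libraries, by 0.28 and 0.19 on the log2 scale under the control mean, with the controls at 0.04 on either side of it. It was the only member lower than both controls on this scale. Crx and Nr2e3 kept their ratio to the rod genes within the spread of the controls, with mean differences of 0.00 and -0.05 after light. Neurod1, Mef2d and Samd7 also overlapped with the controls, with mean differences of 0.14, 0.21 and 0.20. Otx2, Rorb, Thrb and Rxrg were higher relative to the rod genes in both light-exposed libraries, with mean differences of 0.34, 0.56, 0.69 and 0.84. The rod list itself was at -0.53 and -0.95 against its control mean in light-exposed 1 and 2. A gene of unchanged CPM is therefore higher on this ratio, and the share over all genes was not computed. In CPM, Otx2 had a log2 fold change of -0.39 after light, and Rorb, Thrb and Rxrg had -0.19, -0.06 and 0.11. Against the 11 cone phototransduction genes, all 10 factors were lower in both light-exposed libraries than in both controls, from -0.17 for Rxrg to -1.24 for Nrl. The cone list itself was at 0.38 and 0.15 against its control mean in light-exposed 1 and 2. A gene of unchanged CPM is therefore also lower on that ratio, and the share over all genes was not computed.

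**Figure D3:**
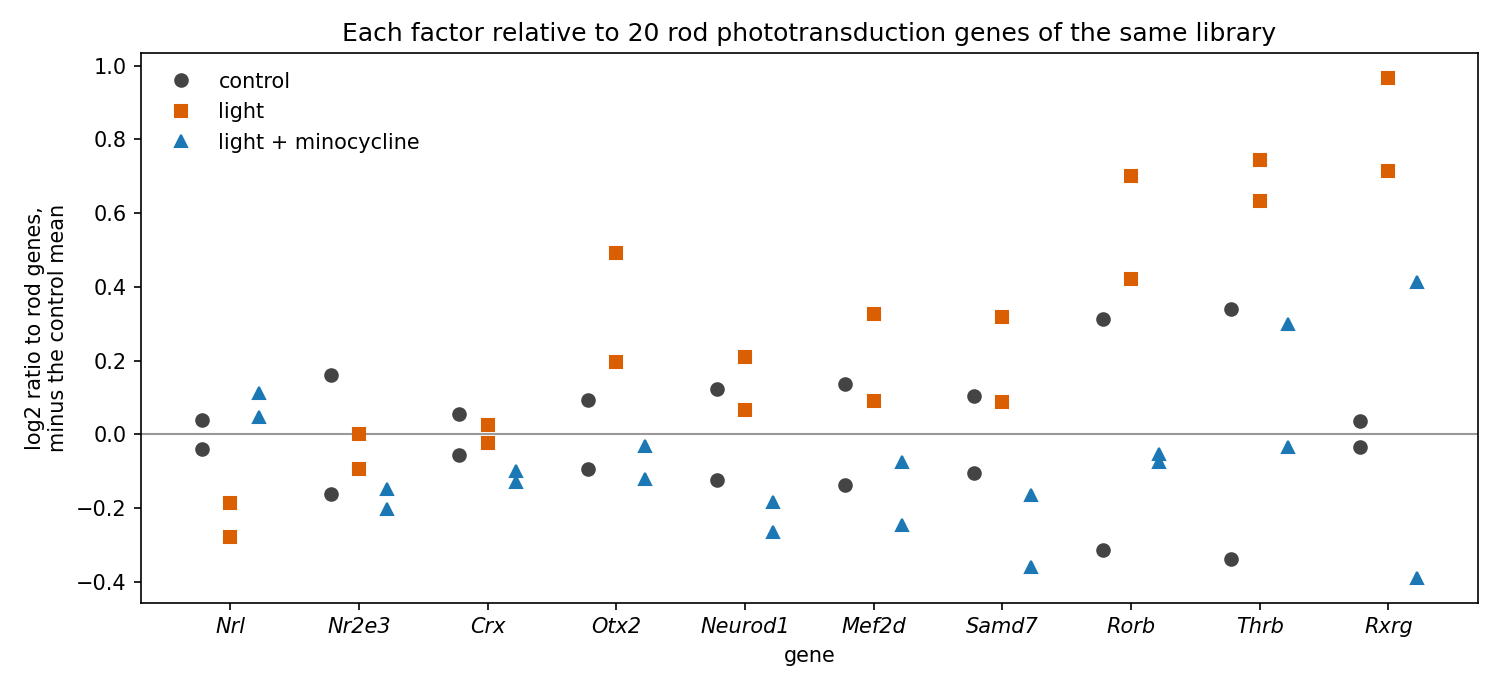
Log2 ratio of each transcription factor to the mean of 20 rod phototransduction genes in the same library, set to 0 at the control mean, with 1 point per library. Nrl is the only gene with the light-exposed squares under both controls and the minocycline triangles above them; Rorb, Thrb and Rxrg have light-exposed squares from 0.42 to 0.97.

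The genes that these factors control were read from lists. All 20 rod phototransduction genes were tested after light and 4 were called, all lower (Cngb1, Guca1b, Gucy2f and Reep6, of which Guca1b was named after its values were seen), with a median log2 fold change of -0.75, beside 3.8% of all tested genes called lower. Gnat1, the rod transducin, had a log2 fold change of -0.89 with an edgeR adjusted p of 0.1. Cngb1 and Gucy2f, a channel subunit and a guanylate cyclase of rods, were lower by a log2 fold change of -0.83 and -0.79, with edgeR adjusted p-values of 0.0372 and 0.0352. Of the 18 outer segment genes, 2 were called, both lower (Mak and Rp1l1), beside the same 3.8%, and all 18 had log2 fold changes below 0, with a median of -0.67. Of the 11 cone phototransduction genes, 1 was called, higher (Ccdc136), beside 7.52% of all tested genes called higher, and the median log2 fold change was 0.25. The short-wave opsin Opn1sw was at 599 and 522 CPM in the controls and 812 and 550 CPM after light, with a log2 fold change of 0.29 and an edgeR adjusted p of 0.406.

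A further 16 regulators of photoreceptors were listed beside the members, and all were tested. Of these 16, 6 were called, all lower, which is beside a background of 3.8% called lower. They included Casz1, at 759 and 919 CPM in the controls and 485 and 478 CPM after light, with a log2 fold change of -0.79 and an edgeR adjusted p of 0.0252. Esrrb, an orphan nuclear receptor that supports rod survival, was at 568 and 527 CPM in the controls and 364 and 268 CPM after light, with an edgeR adjusted p of 0.0278. Prdm1, a repressor of the bipolar fate, was at 41.5 and 38.5 CPM in the controls and 26.3 and 20.1 CPM after light, with an edgeR adjusted p of 0.0243. These changes were smaller than that of Nrl, and the other called genes, named after their values were seen, were Pias3, Ankrd33 and Sp4.

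Of 21 listed family relatives of the 10 members, 18 were tested and 5 were called, 1 higher and 4 lower, beside 7.52% of all tested genes called higher and 3.8% called lower. Mef2c, a relative of Mef2d, was at 174 and 151 CPM in the controls, 95.5 and 70.8 CPM after light, and 142 and 163 CPM with minocycline, with a log2 fold change after light of -0.96 and an edgeR adjusted p of 0.0137. Samd11, a rod partner of Samd7, was at 679 and 731 CPM in the controls, 471 and 390 CPM after light, and 397 and 580 CPM with minocycline, with an edgeR adjusted p of 0.0352 after light. Rora and Rxra, relatives of Rorb and Rxrg named after their values were seen, were also lower after light, by log2 fold changes of -0.76 and -0.53 with edgeR adjusted p-values of 0.0179 and 0.0349. Neurod4, a relative of Neurod1 found in bipolar and amacrine cells, was at 126 and 94.95 CPM in the controls, 199 and 236 CPM after light, and 173 and 115 CPM with minocycline. Neurod4 rose after light, with a log2 fold change of 0.98 and an edgeR adjusted p of 0.0132.

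Transcription factors of the other retinal neurons and of Müller glia served as a comparison of the same gene class. Of 28 listed, 26 were tested after light, and 4 were called, all higher, beside 7.52% of all tested genes called higher, with a median log2 fold change of 0.31 against -0.52 for the photoreceptor factors. They included Vsx1, a homeobox gene of bipolar cells, with a log2 fold change of 1.16 and an edgeR adjusted p of 0.0132. Isl1, which marks bipolar, amacrine and ganglion cells, was higher by a log2 fold change of 1.05 with an edgeR adjusted p of 0.0196. Pax6, the most abundant of this list, had a log2 fold change of 0.46 and an edgeR adjusted p of 0.112. Of the 12 bipolar markers, 4 were called, all higher, beside 7.52% of all tested genes called higher, and 8 were not called, with a median log2 fold change of 0.56 over the 12. Of the other marker lists, 5 of 12 Müller glia, 4 of 12 microglia and 1 of 8 vessel genes were called, all higher, beside the same 7.52%, with medians of 0.80, 4.16 and 0.23. Among 10 amacrine, 8 ganglion cell, 13 tested pigment epithelium, 6 tested corneal and 10 housekeeping genes, 0 were called by edgeR, beside 11.3% of all tested genes. The medians of these lists were 0.17, 0.24, -0.44, 0.90 and -0.09. Of their genes, 2, 0, 1, 0 and 2 had an unadjusted edgeR p under 0.05, beside 4144 of all 14349 tested genes in either direction. All values in CPM are relative to the library, and the part of the glial, microglial and rod levels in each difference was not tested.

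**Figure D4:**
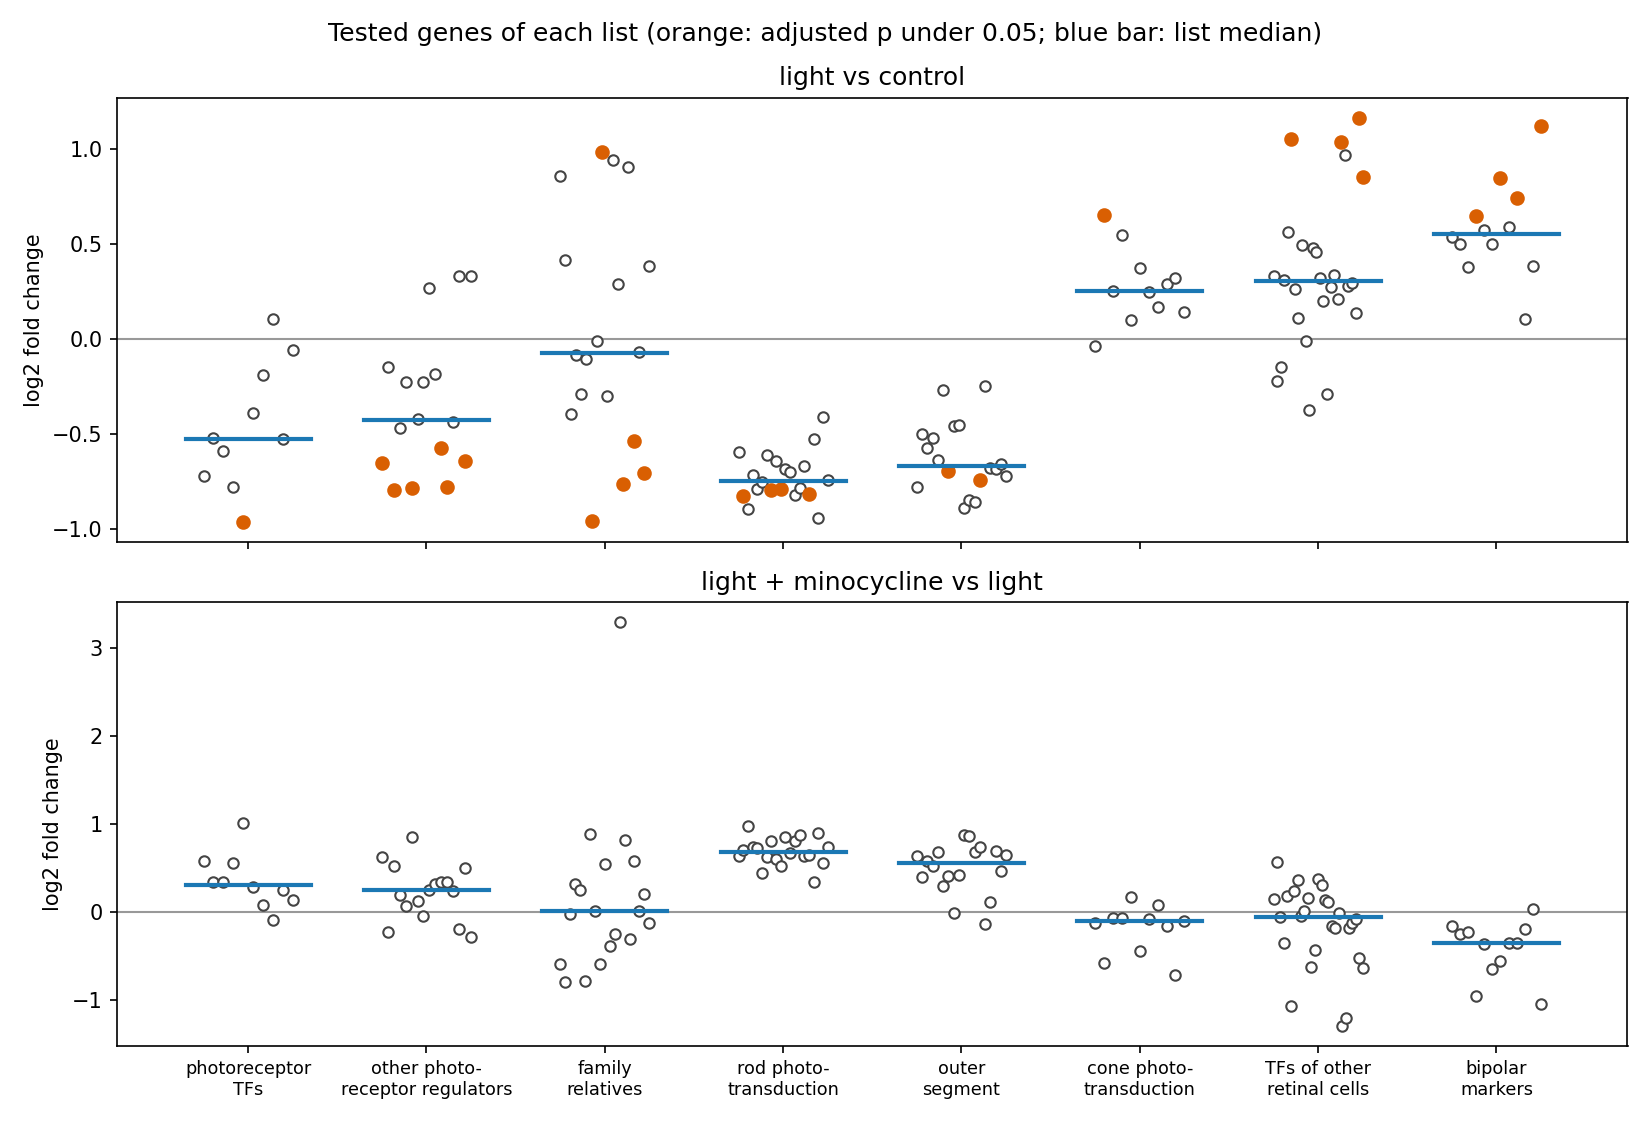
Log2 fold change, on the vertical axis, of each tested gene in 8 lists, for light-exposed against control retinas (upper) and for light-exposed plus minocycline against light-exposed retinas (lower), with the list median as a bar and called genes filled. After light, medians lie at -0.52 for the 10 photoreceptor factors, -0.75 for rod and 0.25 for cone phototransduction genes.

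The comparison of light-exposed retinas with and without minocycline asked whether the treated retinas differed in these factors. No member was called by edgeR, 0 of 10, beside 0.0542% of 14750 tested genes, which is 8 genes in all. That count was 772 without light-exposed 1, 33 without light-exposed 2, 235 without minocycline A and 14 without minocycline B. Without adjustment, 3 members, Crx, Nrl and Nr2e3, had an edgeR p under 0.05 with higher values under minocycline, beside 9.04% of all tested genes higher at that level. With DESeq2, 2 members were called, Crx and Nrl, both higher, beside 8.12% of all tested genes called in either direction. The minocycline libraries lay entirely above the light-exposed libraries for 6 members, beside 26.8% of all tested genes: Crx, Nrl, Nr2e3, Otx2, Neurod1 and Mef2d. The light-exposed libraries enter this comparison as well as the one with the controls, so differences in opposite directions between the comparisons are in part built in.

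Nrl had the largest difference of the 10 between treated and untreated light-exposed retinas, 2.01-fold, a log2 fold change of 1.01 (standard error 0.23, 95% interval 0.47 to 1.55) with an edgeR adjusted p of 0.0844. Its adjusted p was 0.0447 with all 6 libraries in one edgeR fit, 0.0336 without a filter in edgeR and 1.36e-06 with DESeq2. Leaving out a library in turn, the log2 fold change of Nrl stayed between 0.83 and 1.17, and the edgeR adjusted p was 0.0503 to 0.436. Crx and Nr2e3 were 1.49-fold and 1.47-fold higher in the minocycline group, with log2 fold changes of 0.58 (standard error 0.22) and 0.55 (standard error 0.23) and edgeR adjusted p-values of 0.190 and 0.235. Without light-exposed 2 these were 0.38 for Crx and 0.30 for Nr2e3. Otx2, Neurod1, Mef2d and Samd7 had log2 fold changes of 0.28, 0.34, 0.34 and 0.24, with 95% intervals that include 0. Without light-exposed 2, Neurod1, Mef2d and Samd7 were at 0.18, 0.23 and 0.13, without minocycline B at 0.21, 0.16 and 0.05, and without minocycline A at 0.46, 0.51 and 0.42. Rorb, Thrb and Rxrg had 0.08, 0.14 and -0.09. Relative to the rod genes of the same library, Nrl was the only factor higher in both minocycline libraries than in both light-exposed libraries, by 0.31 on average. The other 9 were lower, from -0.12 for Crx to -0.83 for Rxrg. Against its control mean, the rod list was at -0.53 and -0.95 in light-exposed 1 and 2. In minocycline A and B it was at -0.12 and 0.02, so a gene of unchanged CPM is lower on that ratio. Relative to the cone genes, 9 of the 10 were higher in both minocycline libraries, from 0.26 for Rorb to 1.20 for Nrl, and Rxrg overlapped. The cone list was at 0.38 and 0.15 in light-exposed 1 and 2, and at 0.147 and -0.01 in minocycline A and B. A gene of unchanged CPM thus tends to be higher on the cone ratio. Shares over all genes were not computed for these ratios. Among targets, 0 of 20 rod phototransduction genes were called by edgeR, beside 0.0542% of all tested genes, and 16 had an unadjusted edgeR p under 0.05 with higher values, beside 9.04%. The median log2 fold change of the 20 genes was 0.68. Other cell types' genes differed too. Of 12 microglia and 12 Müller glia genes, 11 and 6 had an unadjusted edgeR p under 0.05 with lower values (medians -3.63 and -0.36, 0 called). At that level, 1783 of all 14750 tested genes had lower values. All 7 tested corneal genes had an unadjusted edgeR p under 0.05 with higher values, beside 9.04% of all tested genes (median 4.43, 2 called, beside 0.0542%). The part of these microglia, Müller glia and corneal genes in the values of the factors was not tested.

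Minocycline-treated and control retinas were then compared to see where the factors stood after light under treatment. No member was called by edgeR, 0 of 10, beside 0.162% of 14181 tested genes, or by DESeq2, beside 1.18%. With an unadjusted edgeR p under 0.05 there were 0 members, beside 7.01% of all tested genes. Over all genes edgeR called 23, and 3 without control 1, 9 without control 2, 410 without minocycline A and 480 without minocycline B. The median log2 fold change was -0.11 over the members and 0.02 over all genes. Nrl was at 3142 ± 414 CPM in control and 3196 ± 314 CPM with minocycline (SD, n = 2 each), a log2 fold change of 0.07 with a 95% interval of -0.38 to 0.52. Crx was at 1754 ± 68.9 and 1564 ± 128 CPM, a log2 fold change of -0.12 with a 95% interval of -0.54 to 0.29. With a library left out in turn, Crx ran from -0.25 to -0.04. For 5 members, Crx, Otx2, Neurod1, Mef2d and Samd7, both minocycline libraries lay below both controls, beside 24.5% of all tested genes. With all libraries of both groups, Samd7 had the largest difference of these, a log2 fold change of -0.26 with a 95% interval of -0.68 to 0.16. Leaving out a library in turn, that of Samd7 ran from -0.48 to -0.11. Without minocycline A, Neurod1 was at -0.13 and Samd7 at -0.11. Minocycline A, at 428 CPM, was within the range of the light-exposed libraries of Samd7. Over the 10 members the intervals reached from -0.75 to 0.82, both for Rxrg, so equality with the controls is not shown.

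Libraries within a group did not repeat equally. All 10 factors were lower in light-exposed 2 than in light-exposed 1, and 8 were lower in minocycline A than in B, the exceptions being Thrb and Rxrg. The share of all genes ordered in the same way was not computed. The controls split evenly, with Crx, Nrl, Nr2e3, Otx2 and Rxrg higher in control 1 and the other 5 higher in control 2. Light-exposed 2 also had the lower summed rod level, 58094 against 80535 CPM, and the higher microglia level given above. Minocycline A had the higher ganglion cell level, 665 against 320 CPM over 8 genes, and the lower pigment cell level. Their part in the values of the factors was not tested.

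Nr2e3 and Nrl had the widest range of log2 CPM over the 6 libraries, 1.30 and 1.27, and the genes closest to them in profile were looked up among 13976 others. The measure was the root mean square difference of log2 CPM after each gene was centered on its mean, over 6 libraries. For Nrl the closest were Kcnj14, Mef2c and Prph2, at 0.06, 0.07 and 0.07. Kcnj14 encodes a potassium channel and Prph2 a structural protein of outer segment discs. For Nr2e3 they were Nme5, Reep6 and Ppap2c, at 0.06, 0.06 and 0.07, and Reep6 belongs to the rod list. Control 1 was the highest and light-exposed 2 the lowest library for both factors.

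Some members share sequence with another annotated gene, and the handling of such reads is not given in the sources used here. Neurod1 shares 201 exon bases with Cerkl on the same strand, which held 3202 to 4405 counts. Otx2 shares 154 exon bases with the opposite-strand transcript Otx2os1, with 277 to 399 counts, and Mef2d shares 531 with 1700113A16Rik, with 24 to 45 counts. Gm7616 lies across Nr2e3 on the opposite strand without a shared exon base and held 203 to 406 counts. Whether strand was used in counting is not given either, so reads of such pairs may not be fully separated.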

How the data were processed

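Retinal mRNA of 6 libraries was analyzed, 2 per group. The authors prepared TruSeq stranded libraries, aligned single reads to mm10 (GRCm38) with STAR and counted them per gene through RNA Express. The deposited values are whole-number counts per gene, although the study calls them normalized, and 4791 of 23420 genes had 0 counts in every library. Versions of STAR, the annotation and the strand setting are not given in the sources used here. No value column was left out (0 unused).

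Pairs of groups were compared with edgeR 4.0.16 in R 4.3.3 on the whole table: filterByExpr, TMM, robust quasi-likelihood F test, two-sided, Benjamini-Hochberg adjustment over all tested genes, and a call at an adjusted p under 0.05. The standard error was the log2 fold change divided by the root of F, and 95% intervals used the degrees of freedom of the test. A prior count of 2 entered log2 CPM. The labels call the samples replicates, the paper biological replicates. DESeq2 1.42.0 was an alternative. The 10 members and the 16 other lists were chosen with earlier results of these data known. Genes named came from the members, from each list the 2 with the highest mean CPM and the 2 with the smallest p after light, the 3 genes nearest in profile to the 2 members of widest range, and overlapping genes; genes outside this rule are marked in the text as named after their values were seen. Scripts were tested on simulated data. Locations and exon lengths came from GENCODE M21. Reads were not analyzed here. Single values of some listed genes are not reported here.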

Additional observations from a re-analysis of the deposited data

How the results depend on the processing

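The number of members called after light was 1 and depended on the method: 6 with DESeq2, 5 without a filter, 5 with the replicate block (where 13.3%, 12.6% and 17.6% of all tested genes were called, against 11.3%), 6 at an adjusted p under 0.1, 0 when scaled by total library size, 0 with the fold cutoff, and 0 to 3 when a library was left out (0 without control 1, control 2 or light-exposed 2, and 3 without light-exposed 1). For minocycline against light, with 0 called, it was 2 with DESeq2, 1 without a filter, 1 with all 6 libraries in one fit, 1 at an adjusted p under 0.1 and 0 to 0 without a library. For minocycline against light, the share of all tested genes called was 8.12% with DESeq2, 3.97% without a filter and 3.32% in one fit. Scaled by total library size, 14.4% were called after light. The share of all genes at an adjusted p under 0.1 was not computed for either comparison. For minocycline against control no alternative called a member. The adjusted p of Nrl after light ran from 1.89e-06 to 0.199. Signs turned only among small differences. Scaled by total library size, Rorb and Thrb were at 0.0472 and 0.1766 after light and at -0.09825 and -0.03014 for minocycline against light, and with all 6 libraries in one fit Rxrg was at -0.00539 for minocycline against control. Without a library, log2 fold changes ran after light from -0.3986 to 0.04303 for Rorb, -0.2901 to 0.2051 for Thrb and -0.02597 to 0.2334 for Rxrg. For minocycline against light they ran from -0.0197 to 0.1767, -0.03 to 0.2908 and -0.4491 to 0.1929. For minocycline against control they ran from -0.2998 to 0.1532, -0.1285 to 0.3782 and -0.3469 to 0.292, from -0.07906 to 0.1972 for Nrl and from -0.4296 to 0.06381 for Nr2e3. The cause was not tested. Over all genes, minocycline against light gave 8 calls, 1197 with DESeq2, 732 without a filter, 488 in one fit, 15 without robust estimation, 2 with upper quartile or DESeq2 size factors, 0 by total library size and 14 to 772 without a library. Minocycline against control gave 23, 168 with DESeq2, 187 without a filter, 3 with at least 10 counts in every library, 0 in one fit and 3 to 480 without a library. Control and light replicate numbers did not deviate together (r = -0.00747 across 14349 genes, which are not independent replicates), and the replicate block moved the calls after light from 1624 to 2525. No paired analysis was possible because both minocycline columns carry the same replicate number, for either comparison with them. With a library left out, the lone sample of a group is assumed to vary like the others. Groups of 2 allow no test for outlying libraries, and Rxrg had the lowest count of the members, 59.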
